A study of Bos taurus with 15 samples.

Results

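The differentiated keratinocytes of the newborn (NB) bovine forestomach described here are barcodes of the reticulum NB and omasum NB libraries that were chosen by their counts of *SPINK5* and *A2ML1*. A barcode marks the RNA of a droplet, which should hold 1 cell, and a unique molecular identifier (UMI) marks 1 captured RNA molecule. A member had 500 to 4000 detected genes, fewer than 50000 UMIs, and at least 3 UMIs of *SPINK5* and *A2ML1* summed. The rule found 401 members among the 7512 reticulum barcodes within the limits on genes and UMIs (5.34%, exact 95% binomial interval 4.84 to 5.87%). In the omasum it found 1590 among 10974 (14.5%, 13.8 to 15.2%), so that 1991 of 18486 forestomach barcodes, and of 132361 such barcodes in the whole series, were described. They were set beside the other barcodes of the same library that held at least 1 UMI of *KRT14*, a keratin of stratified epithelium, numbering 6414 in the reticulum and 8834 in the omasum and called the other *KRT14* barcodes below.

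The series holds 15 single-cell libraries of digestive tract tissue, liver and salivary gland from Holstein dairy cattle, 11 from NB calves and 4 from adult (AD) tissue of 1 cow. The labels name no treatment, genotype or exact age for the NB reticulum and omasum, and no AD reticulum or omasum library was analysed here. The outer muscle was removed and the tissue was treated with EDTA and trypsin and then with collagenases, hyaluronidase, dispase and DNase I, so that only cells which these steps released were counted. Each tissue had 1 library, and neither the tissues nor the animals were replicated. The study used several NB calves, and which calf gave which tissue is not given in the sources used here. For these reasons, and because the members were selected on counts of the same cells, every difference below is a description with no test, and each interval covers counting error only.

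Background on the tissue helps in reading the values. The forestomach of cattle is lined by a stratified squamous epithelium, in which basal cells attached to a basement membrane divide, and their descendants move outwards, exchange basal for suprabasal keratins, join firmly through desmosomes and build a cross-linked protein envelope before they are shed. The same epithelium takes up short-chain fatty acids and salts from the fermenting contents once the animal ruminates. *SPINK5* encodes LEKTI, a secreted inhibitor of the kallikrein proteases that cut desmosomes during shedding, and *A2ML1* encodes a broad protease inhibitor made in the outer living layers.

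The files held 125527022 UMIs for the reticulum and 129458578 for the omasum, and those of the other libraries held between 17707625 and 117505536. Members were deeper than the other *KRT14* barcodes, with a median of 14574 against 9485 UMIs in the reticulum and 13468.5 against 8934.5 in the omasum, and with 3045 against 2414 and 2803.5 against 2192 detected genes. Mitochondrial transcripts made up a median of 8.59% of UMIs in reticulum members and 6.10% in the other *KRT14* barcodes, and 5.26% and 5.35% in the omasum. The rule set no limit on them, and 15 and 3 members exceeded 40%. The limit on genes left out a further 184 reticulum and 363 omasum barcodes that had more than 4000 genes and at least 3 UMIs of the rule genes. The 2 libraries shared 42 barcode sequences, below the highest number over the 105 pairs of libraries (84), and 1 shared sequence was a member in both.

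The values that chose the members are given first. *SPINK5* reached 1298 counts per 1000000 UMIs of the group of barcodes (CPM) in reticulum members and 6.10 in the other *KRT14* barcodes, and 2739 and 13.6 CPM in the omasum. *A2ML1* stood at 345 and 2.63 CPM in the reticulum and at 338 and 2.01 CPM in the omasum. Members held a median of 10 UMIs of the rule genes in the reticulum and 23 in the omasum. *SPINK5* was seen without *A2ML1* in 141 reticulum members (35.2%) and 696 omasum members (43.8%), both genes were seen in 252 and 893, and *A2ML1* alone in 8 and 1. *KRT14* itself, which no member needed, was seen in 372 of 401 and 1475 of 1590 members (92.8% in each tissue). Its level was 5733 CPM in reticulum members against 4014 in the other barcodes, and 4549.8 against 5664 in the omasum. Its ratio thus lay on opposite sides of 1 in the 2 tissues. The other barcodes were chosen by their *KRT14* UMIs and the members were not, so nothing is read from this ratio. Members with a *KRT14* UMI had 6041 CPM in the reticulum and 4835 CPM in the omasum.

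The threshold of 3 UMIs cut through a graded distribution. In the reticulum 100 barcodes had 2 rule UMIs and stayed outside, and 48 had 3 and were members. In the omasum these were 253 and 111. Among the *KRT14* barcodes with 2 rule UMIs, *KRT4* stood at 2534 CPM in the reticulum and 7810.1 CPM in the omasum, and among members with 3 at 4358 and 9093 CPM. *COL17A1* was at 682 and 618 CPM just outside and at 444 and 556 CPM just inside. Among barcodes with at least 10 UMIs of the fibroblast collagens *COL1A1*, *COL1A2* and *COL3A1* summed, called collagen barcodes, which should lack the rule genes, 2 of 135 reticulum barcodes (1.48%) and 15 of 293 omasum barcodes (5.12%) that were no members had a UMI of *SPINK5* or *A2ML1*. Their median depth was 2108 and 1898 UMIs. With members included, 17 of 295 omasum collagen barcodes (5.76%) had such a UMI, and 2 of them had at least 3 and were members. A *KRT14* UMI was seen in 60 of the 135 reticulum and 133 of the 293 omasum collagen barcodes (44.4% and 45.4%). These were thus part of the other *KRT14* barcodes.

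The label was then checked against markers of other layers and cell types. Members carried transcripts of involucrin (*IVL*) in 243 of 401 and 1248 of 1590 barcodes and of *KRTDAP* in 351 and 1423. Leukocyte, endothelial and fibroblast transcripts were scarce. *PTPRC*, which marks leukocytes, had 0 UMIs in the members of both tissues. By a limit of 3 counts, which is not an exact interval, this allows a share of up to 0.748% in the reticulum and 0.189% in the omasum. The 8 fibroblast markers summed to 17.6 CPM in reticulum members and 228 CPM in the other *KRT14* barcodes, and to 25.7 and 192 CPM in the omasum. The 7 endothelial markers summed to 10.6 against 55.2 CPM and 8.74 against 59.0 CPM. The 12 leukocyte markers summed to 76.7 against 52.5 CPM and 45.5 against 20.6 CPM, of which *AIF1* and *CD14* gave 42.2 and 28.1 CPM in reticulum members and 15.9 and 25.7 CPM in omasum members, while 6 and 5 of the 12 were at 0. The 10 markers of simple epithelium summed to 192 and 213 CPM in members, mostly through *EPCAM* at 127 and 183 CPM, and 6 of the 10 were at 0 in each tissue. Markers of smooth muscle, Langerhans cells, melanocytes and Schwann cells, erythroid cells and Merkel cells each summed to at most 3.66 CPM in members. The markers thus fitted a keratinocyte label in both tissues. Transcripts of *COL17A1* and of division, described further on, were present in part of the members. Several genes usual for such cells, *KRT13* and *FLG* among them, have no row under these symbols and were not analysed here.

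**Figure D1:**
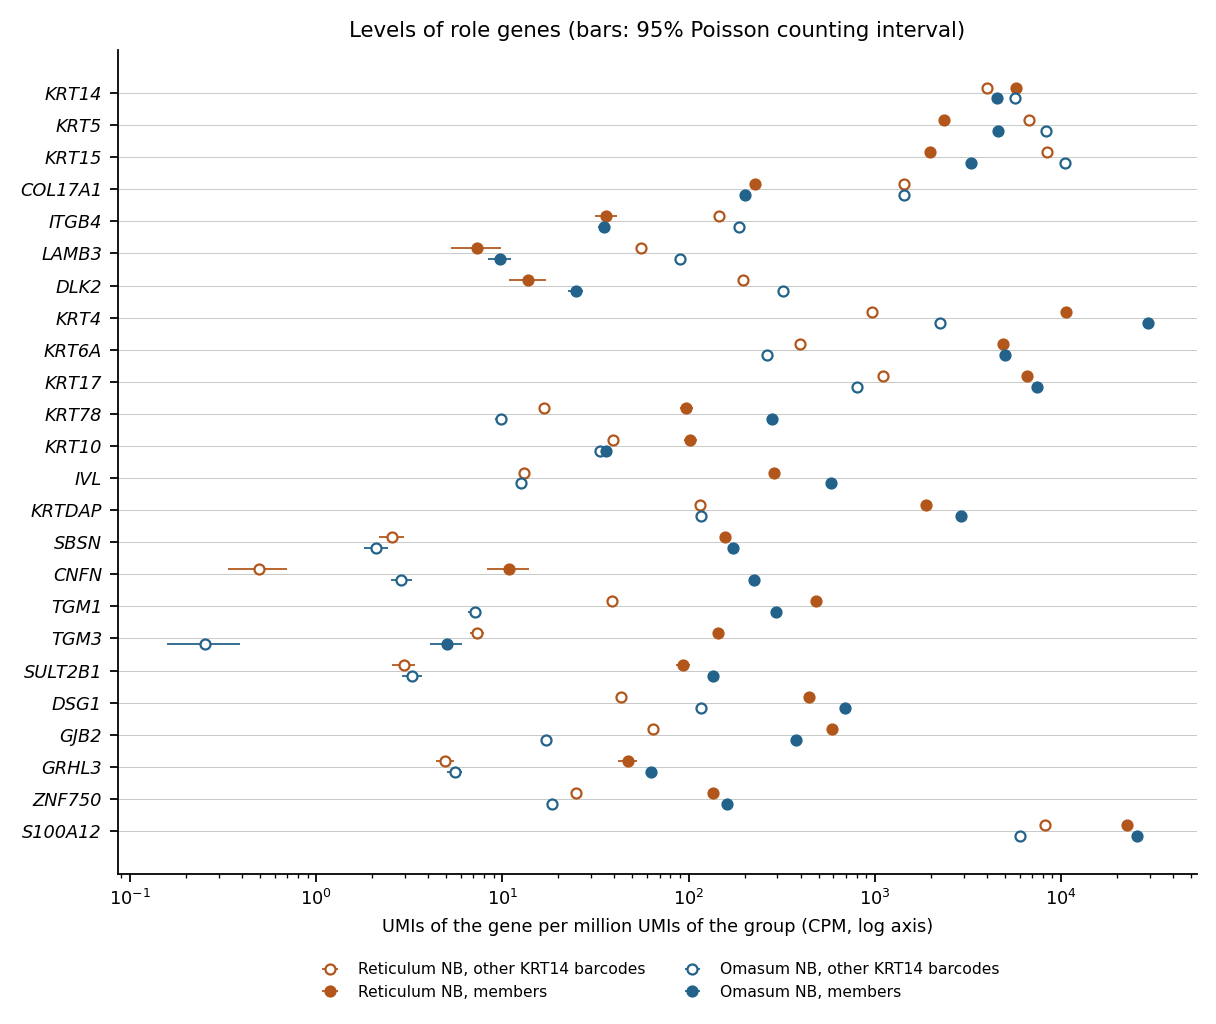
Level of named genes by their role, in CPM on a log axis, in members (filled points) and in the other *KRT14* barcodes (open points) of each tissue, with 95% Poisson counting intervals as bars. Basal genes such as *COL17A1* sit lower in members (227 and 200.1 CPM) than in the other barcodes (1442 and 1444 CPM), and *KRT4* (10653 and 29210.4 CPM in members) and *DSG1* (443 and 692 CPM) sit higher in both tissues.

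Of 8172 genes with a mean of at least 5 CPM over the 4 groups of barcodes, 336 were at least 2-fold higher in members in both tissues (4.11% of the genes tested) and 494 at least 2-fold lower (6.05%), on the scale of log2(CPM + 1). The 336 include both rule genes. None of the tested genes went the opposite way in the 2 tissues at this size. The median gene lay at -0.11 in the reticulum and -0.09 in the omasum on that log2 scale. These shares are the background for the counts of each gene group, and since the members were chosen with counts of the same barcodes, nothing is read from the counts beyond their size. Scaling by medians of ratios in place of total UMIs gave 395 higher and 402 lower genes.

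Apart from the rule genes, the 10 named genes furthest above the other *KRT14* barcodes in both tissues were *WFDC18*, *SBSN*, *PHGR1*, *TMPRSS11BNL*, *DMKN*, *SULT2B1*, *TMEM229B*, *ARG1*, *IVL* and *C7H5orf46*. *WFDC18*, of a family of small secreted proteins with a protease inhibitor fold, reached 628 CPM in reticulum members and 849 CPM in omasum members against 9.17 and 17.3 CPM. *ARG1*, the arginase that splits arginine into urea and ornithine, was at 27.4 and 47.8 CPM in members and at 0.353 and 0.412 CPM in the other barcodes. *TMPRSS11BNL*, named for its likeness to a membrane serine protease of squamous epithelium, was at 107 and 95.6 CPM against 2.61 and 1.13 CPM. *WFDC18* and *TMPRSS11BNL* belong to gene families, and whether reads were split with close copies was not tested. Among genes without a symbol, ENSBTAG00000046944 was at 189 and 495 CPM in members against 1.32 and 4.05 CPM, and 17 higher and 10 lower genes in all had no symbol.

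The 10 named genes furthest below were *DLK2*, *LFNG*, *DLK1*, *DCN*, *SERPINH1*, *DKK3*, *PDGFA*, *CD74*, *COL1A1* and *ITGA3*. *DCN* and *COL1A1* are matrix genes of fibroblasts and *CD74* belongs to antigen presentation. The fibroblast markers as a whole were also lower in members, as given above. Collagen barcodes with a *KRT14* UMI were among the other barcodes. A *DCN* UMI was seen in 36.6% and 31.8% of the other *KRT14* barcodes and in 8.23% and 8.49% of members. For *COL1A1* these shares were 2.35% and 3.49%, and 0.998% and 1.19%. The part of cells or free RNA of other types in these ratios was not tested. *SERPINH1*, a chaperone of collagens, was at 16.6 and 14.5 CPM in members against 146 and 117 CPM. *PDGFA*, a growth factor that acts on mesenchymal cells, was at 3.83 and 10.4 CPM against 54.3 and 84.6 CPM. A doublet score measures how like a barcode is to simulated pairs of barcodes, and 15 reticulum and 157 omasum members had a high one. Leaving out such barcodes, chosen after the data were seen, moved the fold of 25 of 393 genes of the lists and of these rankings by over 1.5 times, 23 of them in the omasum, and each of the 25 was lower in members and then further below the other barcodes. In omasum members *DCN* then stood at 5.88 CPM, *DLK1* at 17 CPM, *DKK3* at 2.80 CPM, *SERPINH1* at 8.68 CPM and *PDGFA* at 5.06 CPM.

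**Figure D2:**
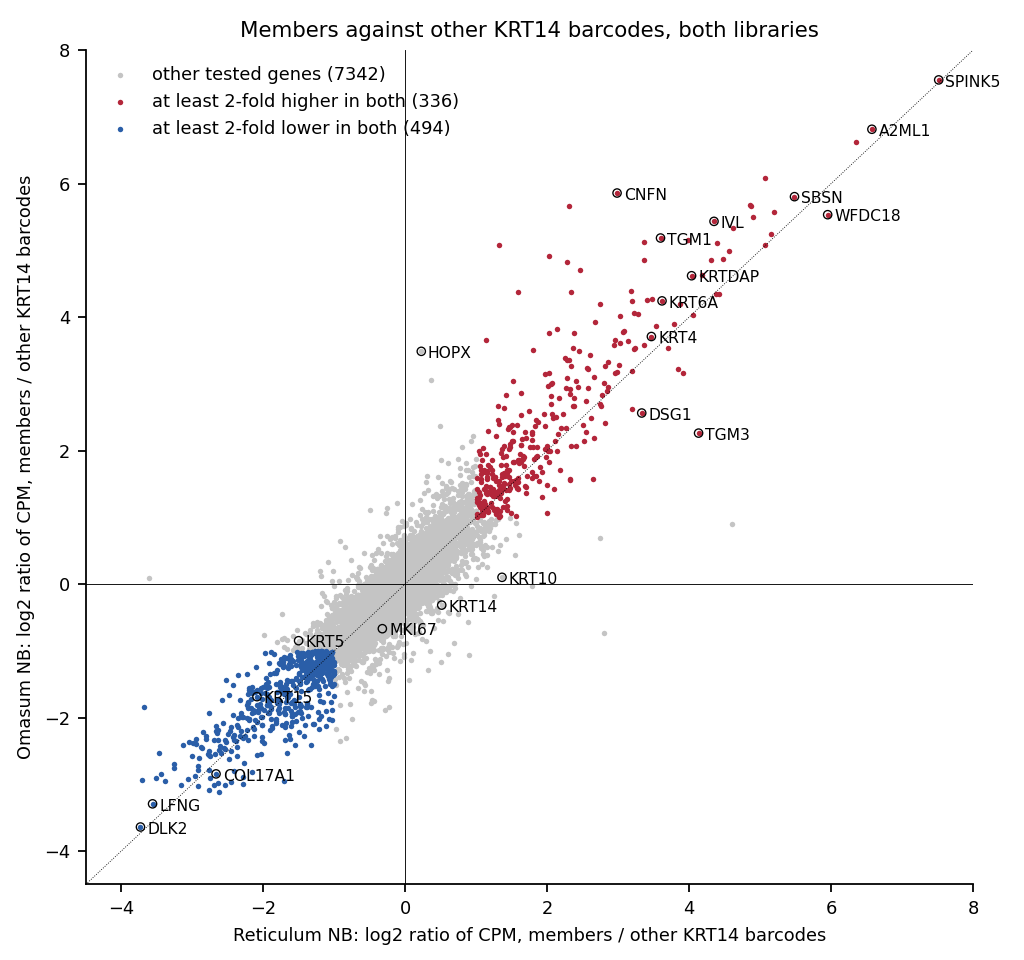
Log2 ratio of members to other *KRT14* barcodes, on the scale of log2(CPM + 1), for the 8172 genes tested, with the reticulum on the horizontal and the omasum on the vertical axis. The 336 genes at least 2-fold higher in both tissues lie at the upper right and the 494 at least 2-fold lower at the lower left, and no gene lies at least 2-fold up in 1 tissue and 2-fold down in the other.

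Genes of the basal layer were lower in members. Of 19 basal cell genes tested, 13 were at least 2-fold lower in both tissues and 0 higher, with a median log2 ratio of -1.89 in the reticulum and -1.84 in the omasum. *COL17A1*, the collagen of the hemidesmosome that ties basal cells to the basement membrane, stood at 227 CPM (95% counting interval 214 to 239) in reticulum members and 1442 CPM in the other barcodes, 6.37-fold lower. In the omasum it stood at 200.1 (194 to 206) and 1444 CPM, 7.22-fold lower, and without barcodes of high doublet score at 117 and 1418 CPM, 12.1-fold lower. The integrin chain *ITGA3* was at 7.49 and 6.97 CPM against 63.3 and 54 CPM, and the laminin chain *LAMB3* at 7.32 and 9.69 CPM against 55.4 and 89.6 CPM. Without barcodes of high doublet score *LAMB3* was at 5.72 CPM in omasum members. *DLK2*, a membrane protein related to the Notch ligands, was 14.2-fold and 12.9-fold lower, at 13.8 and 24.7 CPM, and 21.0-fold and 31.6-fold lower without those barcodes. *KRT15*, a keratin of basal cells, was lower at 1971 and 3286 CPM against 8390.4 and 10588 CPM. *KRT5*, the partner of *KRT14* in the basal filament, did not reach 2-fold in both tissues, at 2369 against 6713 CPM in the reticulum and 4623 against 8328 CPM in the omasum, and neither did *TP63*, the transcription factor of stratified epithelia, at 26.5 against 48.7 and 21.8 against 48.2 CPM.

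Suprabasal keratins were higher in members, and *KRT4* had more UMIs than any other keratin. *KRT4*, the mucosal keratin of the layers above the basal one, reached 10653 CPM in reticulum members and 29210.4 CPM in omasum members against 962 and 2233 CPM, an 11.1-fold and 13.1-fold difference. It made up 1.07% and 2.92% of all UMIs of the members and was exceeded by *S100A12* in the reticulum and by no named nuclear gene in the omasum, by UMIs that are counted per molecule and not scaled to length. Of 5 suprabasal keratins tested, 4 were higher in both tissues, among them *KRT78* at 97.4 and 279 CPM against 16.8 and 9.78 CPM. *KRT10*, the suprabasal keratin of skin, was 2.61-fold higher in the reticulum (102 against 39.1 CPM, 95% counting interval of the fold 2.38 to 2.86) and 1.07-fold in the omasum (36.1 against 33.6 CPM, 0.990 to 1.16). Its partner in skin, *KRT1*, had 4 UMIs in all reticulum members and 4 in all omasum members. Of the keratin pair of skin, *KRT1* was thus barely detected, and *KRT10* was at least 2-fold higher in the reticulum but not in the omasum.

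The keratins *KRT6A*, *KRT6B* and *KRT17*, made by activated or fast-renewing epithelium, were all higher in members. *KRT6A* stood at 4909 against 399 CPM in the reticulum and 5025 against 264 CPM in the omasum. *KRT17* stood at 6594 against 1102 CPM and 7485 against 801 CPM. *KRT6A* and *KRT6B* are close copies, and the split of reads between them is uncertain. Both simple epithelial keratins tested were lower in both tissues, *KRT7* at 5.05 against 29.1 and 1.19 against 7.65 CPM and *KRT19* at 59.8 against 161 and 26.4 against 62.7 CPM. Without barcodes of high doublet score *KRT7* was at 0.714 CPM in omasum members.

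Precursors of the cornified envelope, the protein shell under the membrane of outer keratinocytes, were higher as a group. Of 16 tested, 12 were at least 2-fold higher in both tissues and 0 lower, with a median log2 ratio of 1.90 in the reticulum and 3.67 in the omasum. *SBSN* (suprabasin) was at 158 CPM in reticulum members and 2.55 in the other barcodes, 61.9-fold (counting interval 52.4 to 73.5), and at 173 and 2.11 CPM in the omasum, 81.9-fold (70.4 to 96). *IVL*, an early scaffold of the envelope, was at 286 and 586 CPM against 13.1 and 12.6 CPM. *DMKN* (dermokine) was at 63.3 and 98.7 CPM against 1.63 and 1.48 CPM. *KRTDAP*, a secreted peptide of differentiating keratinocytes, was at 1897 and 2899.5 CPM against 115 and 117 CPM. The enzymes that cross-link these proteins, *TGM1* and *TGM3*, were both higher. *TGM1*, bound to the membrane, was at 483 against 39 CPM in the reticulum and 295 against 7.13 CPM in the omasum, and *TGM3*, free in the cytosol, at 145 against 7.31 and 5.01 against 0.254 CPM. The fold of *TGM3* was close in the 2 tissues, 19.8 and 19.7, while its level in members was not. The envelope genes with the smallest ratio in the reticulum, *S100A10* and *S100A11*, were at 1142 against 1130.4 and 2009.8 against 1527 CPM there, and at 1588 against 843 and 4159 against 1667 CPM in the omasum.

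Lipids that fill the spaces between outer cells limit the loss of water through the epithelium. Of 15 genes for their synthesis and transport, 6 were higher in both tissues and 0 lower, with medians of 0.72 and 0.83. *SULT2B1*, which adds sulfate to cholesterol, was 31.4-fold and 41.4-fold higher, at 93.1 and 136 CPM. *PNPLA1* and *CERS3*, which make the acylceramides of the barrier, were at 13.2 and 9.24 CPM in reticulum members and 24.8 and 13.7 CPM in omasum members, against 1.03 and 0.968 and against 1.67 and 1.32 CPM. *FABP5*, a carrier of fatty acids inside keratinocytes, was at 6729.5 against 1636 CPM and 4572 against 1146 CPM. The last of the 6 was *AQP3*, a channel for water and glycerol and not a lipid enzyme, at 1864 against 779 and 2969 against 977 CPM. *SPTLC1*, which acts in the first step of sphingolipid synthesis, was at 41.5 against 37.1 and 51 against 40.1 CPM.

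Cell junction genes of the same family differed in both directions. Of 13 desmosome genes, 6 were higher and 1 lower, with medians of 1.07 and 1.2. *DSG1*, the desmosomal cadherin of the outer layers, was at 443 against 43.1 CPM in the reticulum and 692 against 116 CPM in the omasum, and *DSC2* at 115 against 15.3 and 137 against 17.6 CPM. *DSG2*, the cadherin of simple and basal epithelium, was lower at 13.1 against 29.6 and 21.3 against 45.8 CPM. *DSG3*, with a ratio between theirs, was at 447 against 212 and 449.9 against 260.3 CPM, and did not reach 2-fold in both. Of 5 gap junction genes, 3 were higher, with medians of 2.68 and 2.83. *GJB2* (connexin 26) was 9.16-fold and 22.1-fold higher at 588 and 379 CPM, and *GJA1* (connexin 43) was at 681 and 479 CPM against 98.8 and 66.6 CPM. Of 10 tight junction genes, 4 were higher, *OCLN*, *CGN* and *CLDN4* among them, and *CLDN3* was lower. *CLDN4* was at 742 against 333 and 641 against 300.3 CPM, and *CLDN3* at 19.5 against 42.1 and 3.92 against 19.1 CPM.

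Shedding is controlled by proteases that cut desmosomes and by inhibitors that hold them in check. Of 11 proteases tested, 3 kallikreins were higher in both tissues and 0 genes were lower. *KLK10* was at 112 against 34.3 CPM and 240.5 against 48.8 CPM, *KLK12* at 11.8 against 0.461 and 19.8 against 0.666 CPM, and *KLK8* at 6.80 against 0.952 and 13.1 against 2.36 CPM. Lysosomal cathepsins were close to the other barcodes, with *CTSD* at 250.1 against 181 and 158 against 136 CPM. Of 14 protease inhibitors other than the rule genes, 7 were higher and 1 lower, with medians of 1.18 and 1.37. *SERPINB2*, an inhibitor of plasminogen activators, was at 76.7 and 45.7 CPM against 3.69 and 1.86 CPM. *PI3* (elafin), an inhibitor of elastase that is also cross-linked into the envelope, was at 89.6 and 38.2 CPM against 5.19 and 1.14 CPM. *SERPINB12* and *SERPINB13* were at 76.7 and 34 CPM in reticulum members and 100.4 and 34.4 CPM in omasum members. *TIMP2*, an inhibitor of matrix proteases, was lower at 11.2 against 37.6 and 16.7 against 37.3 CPM.

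Transcription factors of differentiation were mostly close to the other barcodes, since 7 of 26 were higher and 0 lower, with medians of 0.31 and 0.47. *GRHL3*, which drives barrier formation in skin, was 9.54-fold and 11.3-fold higher at 47 and 62.7 CPM. *ELF5* was at 84.5 against 11.3 and 132 against 15.5 CPM, *ZNF750*, which represses genes of the basal state, at 136 against 24.7 and 160.2 against 18.5 CPM, and *GRHL1* at 89.6 against 16.6 and 94.5 against 14.1 CPM. *KLF4*, another factor of barrier formation, was at 332 against 272 CPM and 428 against 396 CPM and did not reach 2-fold in both.

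Genes of the Notch pathway, by which neighbouring keratinocytes signal to one another, differed in both directions. Of 9 tested, 2 were higher and 4 lower. The receptor *NOTCH3* was at 62 against 15 CPM in the reticulum and 104 against 27.1 CPM in the omasum, and the transcriptional repressor *HES2* at 17.1 against 2.61 and 17.8 against 1.62 CPM. The ligands *DLL1* and *JAG2* were lower, *DLL1* at 2.96 against 27.9 and 9.65 against 57.6 CPM and *JAG2* at 23.4 against 108 and 14.7 against 109.9 CPM. *LFNG*, a glycosyltransferase that tunes the receptors' response to ligands, was 15.7-fold lower in the reticulum, where members held 16 UMIs, and 11.6-fold lower in the omasum. Without barcodes of high doublet score *LFNG* was 20.1-fold and 26.4-fold lower, and *JAG2* was at 7.91 CPM in omasum members. *RBPJ*, the DNA-binding partner of the cleaved receptor, was at 17.1 against 49.6 and 21.9 against 62.1 CPM. The ligand *JAG1* was close to the other barcodes at 50.4 against 59.9 and 77.4 against 89.3 CPM.

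Of 14 WNT and BMP genes, 0 were higher and 5 lower, with medians of -0.47 and -0.72. *WNT10A*, a secreted WNT ligand, was at 7.32 against 50.8 CPM and 10.3 against 88.4 CPM. *DKK3* and *SFRP1*, secreted proteins of the families that hold WNT signals back, were at 4.88 and 27.5 CPM in reticulum members against 43.3 and 116, and at 5.44 and 9.07 against 51.6 and 57.6 CPM in the omasum. *LGR6*, a receptor found on epithelial stem cells, was at 0.871 against 9.78 and 2.96 against 19.5 CPM. Without barcodes of high doublet score *WNT10A* was at 6.05 CPM in omasum members and *LGR6* at 0.363 and 1.87 CPM in reticulum and omasum members. In the epidermal growth factor pathway, 1 of 7 genes was higher, the receptor *ERBB3* (39.9 against 18.8 and 62.6 against 24.9 CPM), and 1 lower, the ligand *NRG1* (1.92 against 10.0 and 2.82 against 10.1 CPM).

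S100 proteins bind calcium, and some of them are released as alarm signals by stratified epithelium. Of 11 tested, 5 were higher and 2 lower, with medians of 0.94 and 1.39. *S100A12* had the most UMIs of any named nuclear gene in reticulum members and was exceeded by *KRT4* in omasum members, at 22764 and 25672 CPM against 8172 and 6006 CPM. *S100A8* and *S100A9*, which form the zinc-binding complex calprotectin, were at 4659 and 2881 CPM in reticulum members against 851 and 372, and at 4384 and 3888 CPM against 391 and 307 in the omasum. *S100A4* was lower at 1485 against 3448 and 1262 against 2666 CPM, and *S100A13* at 6.45 against 46.2 and 13.3 against 64.6 CPM. The leukocyte markers as a whole summed higher in members than in the other barcodes, as given above, and their part in these values was not tested.

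Of 11 innate defence genes, 5 were higher and 1 lower. The antagonists of interleukin 1 and interleukin 36 signals, *IL1RN* and *IL36RN*, were at 21.4 and 12.9 CPM in reticulum members against 2.55 and 1.44, and at 34 and 7.26 CPM against 3.06 and 0.581 in the omasum. *DUOXA1*, which matures the peroxide-making oxidase DUOX1, was at 19.7 against 5.81 and 26.7 against 6.90 CPM. *RNASE4*, a secreted ribonuclease, was lower at 20.2 against 130.2 and 25 against 145 CPM (15.4 CPM in omasum members without high doublet scores). Of 12 genes of the mucosal surface, 4 were higher and 1 lower. *MAL*, a membrane protein of apical transport, was at 364 against 39 CPM and 298 against 14.9 CPM, and *LYPD2* at 306 against 74.2 and 543 against 59.5 CPM. *SLURP1*, a secreted peptide of squamous epithelium, was at 21.6 against 6.28 and 44.5 against 5.27 CPM.

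Metabolic and transport genes for which the ruminating forestomach is known were looked at next. Of 18 genes of ketone body and short-chain fatty acid metabolism, 1 was higher in both tissues and 0 lower, with medians of 0.36 and 0.16. That gene, *HMGCS1*, acts in cholesterol synthesis (383 against 177 and 132 against 58 CPM). Of 25 ion and nutrient transport genes, 6 were higher and 1 lower. *SLC9A2* and *SLC9A3*, sodium-proton exchangers, were at 24.4 and 79.8 CPM in reticulum members against 5.33 and 32, and at 10.7 and 30.9 CPM against 1.96 and 13.9 in the omasum. *TRPV3*, a cation channel of keratinocytes, was at 20.2 against 2.18 and 18.7 against 2.05 CPM, and *SCNN1A*, a chain of the epithelial sodium channel, at 13.9 against 4.01 and 17 against 2.46 CPM. *SLC1A4*, a carrier of neutral amino acids, was lower at 13.1 against 29.5 and 16.3 against 74.7 CPM. The monocarboxylate carrier *SLC16A1* was at 150.2 against 248 and 103 against 198 CPM.

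Of 17 oxidative and detoxifying enzymes, 3 were higher and 3 lower. *GSTA1*, a glutathione transferase, was at 265 against 16.6 CPM and 92.7 against 9.44 CPM, and *PRDX6*, a peroxidase, at 2149.9 against 765 and 788 against 376 CPM. *SOD1*, the cytosolic superoxide dismutase, was lower at 81.4 against 215 and 76.5 against 212 CPM. Of 10 retinoid and vitamin D genes, 2 were higher and 1 lower. *SDR16C5*, which oxidises retinol, was at 164 against 52.2 and 142 against 39.3 CPM, and *CYP26A1*, which breaks retinoic acid down, at 45.8 against 14.9 and 34 against 16.3 CPM. *DHRS3*, which reduces retinal back to retinol, was lower at 11.5 against 47.3 and 32.9 against 118 CPM. None of the 24 ribosomal and translation genes and none of the 22 immediate early and heat shock genes, which respond to stress and tissue handling, were 2-fold apart in both tissues. The ribosomal median was -0.42 and -0.47, and the stress median -0.03 and -0.07.

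Division genes were lower in members, most of them by less than 2-fold. All 40 tested had a log2 ratio below 0 in both tissues, and scaling by medians of ratios turned 1 of them, *PLK1* in the reticulum, from -0.05 to 0.06. At least 2-fold lower in both tissues were 5 of the 40, and the medians were -0.66 in the reticulum and -0.79 in the omasum. The 5 were *TYMS*, *GINS2*, *MCM3*, *STMN1* and *MCM5*, of which *TYMS*, *GINS2* and the *MCM* genes act in DNA synthesis. *MCM3*, a subunit of the replicative helicase, was at 37.8 against 106 CPM and 34.5 against 82.9 CPM. *MKI67*, present in all dividing cells, was at 121 against 152 CPM and 88.4 against 141 CPM. *TOP2A*, which untangles chromosomes before mitosis, was at 130.0 against 219 CPM and 149.8 against 316 CPM. The 14 genes of S phase had a median of -1.12 and -0.88, and the 24 genes of G2 and M phase -0.41 and -0.68. After each barcode was thinned to 2000 UMIs, 22.8% of 399 reticulum members (exact interval 18.8 to 27.2%) had a UMI of *MKI67* or *TOP2A* against 27.9% of 6076 other *KRT14* barcodes, and 18.2% of 1550 omasum members (16.3 to 20.2%) against 22.8% of 8498. The unthinned shares were 43.6% and 44.8% in the reticulum and 31.4% and 35.1% in the omasum. Collagen barcodes that were no members gave 3 of 77 (3.90%) and 11 of 138 (7.97%) at the thinned depth. The rest of the 135 and 293 were too shallow for thinning.

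Members differed widely among themselves, along the share of their UMIs that came from the rule genes. They were divided within each tissue into 3 parts of equal size by that share, called tertiles here, of 134, 134 and 133 reticulum members and 530 omasum members each. They were cut within each tissue and do not match between them, with a median of 2.98, 9.90 and 30.9 rule gene UMIs per 10000 in the reticulum and 5.77, 21.6 and 55.6 in the omasum. The lowest tertile held few shallow barcodes because of the minimum of 3 UMIs, with median depths of 17081, 12495.5 and 13745 UMIs from lowest to highest in the reticulum and 13692, 12775.5 and 14012.5 in the omasum. *KRT4* went from 863 CPM in *KRT14* barcodes without a rule UMI to 1940.4 with 1 or 2, and then to 4741, 8744 and 19548 CPM in the 3 tertiles of reticulum members. In the omasum the same 5 steps were 1846, 4779, 11634, 24894 and 51313 CPM. *COL17A1* descended over these steps from 1492 through 949.8, 356 and 250.0 to 47.9 CPM in the reticulum and from 1508 through 1019, 366 and 155 to 69.6 CPM in the omasum. Without barcodes of high doublet score *COL17A1* was at 236, 83 and 37.7 CPM in the omasum tertiles and at 321, 213 and 44.1 CPM in those of the reticulum. Both genes thus kept 1 direction over all 5 steps, called the course below, in both tissues. The steps were set by the rule genes themselves, so nothing is read from this beyond the values. Barcodes with 1 or 2 rule UMIs had 0.401 to 12.9 rule gene UMIs per 10000 in the reticulum and 0.411 to 16.9 in the omasum. Their shares thus overlapped those of the lowest and middle tertiles.

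The median of the 16 envelope genes was 1.29 in the reticulum and 2.04 in the omasum on the log2 scale between the lowest and highest tertile. *IVL*, *SBSN*, *CNFN* and *KRTDAP* of that list were highest in the highest tertile. *IVL* went from 9.62 and 47.4 CPM outside the members to 139, 206 and 538 CPM in the reticulum tertiles, and from 7.52 and 45.7 to 153, 456 and 1151 CPM in the omasum. *SBSN* stood at 31.1, 67.9 and 394 CPM in the reticulum tertiles and at 17.5, 64.9 and 431 CPM in those of the omasum. *CNFN* (cornifelin) was at 0.450 (1 UMI), 3.57 and 29.9 CPM in the reticulum and 13, 23.5 and 623 CPM in the omasum. *KRTDAP* was at 945, 1779.8 and 3155 CPM and 1058, 2248 and 5396 CPM. *KRT15* went down from 2773 through 2021 to 955 CPM and from 5132 through 3123 to 1524 CPM.

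The tissues parted in 2 keratins along this course. *KRT14* was at 5166, 5135 and 6967 CPM in the reticulum tertiles and at 6947, 4813 and 1832 CPM in those of the omasum, so that the highest tertile was the richest in *KRT14* in the reticulum and the poorest in the omasum. *KRT10* was at 45.5, 48.2 and 220.5 CPM in the reticulum and 37.2, 37.2 and 33.7 CPM in the omasum. With 1 library each, this difference between tissues was not tested.

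**Figure D3:**
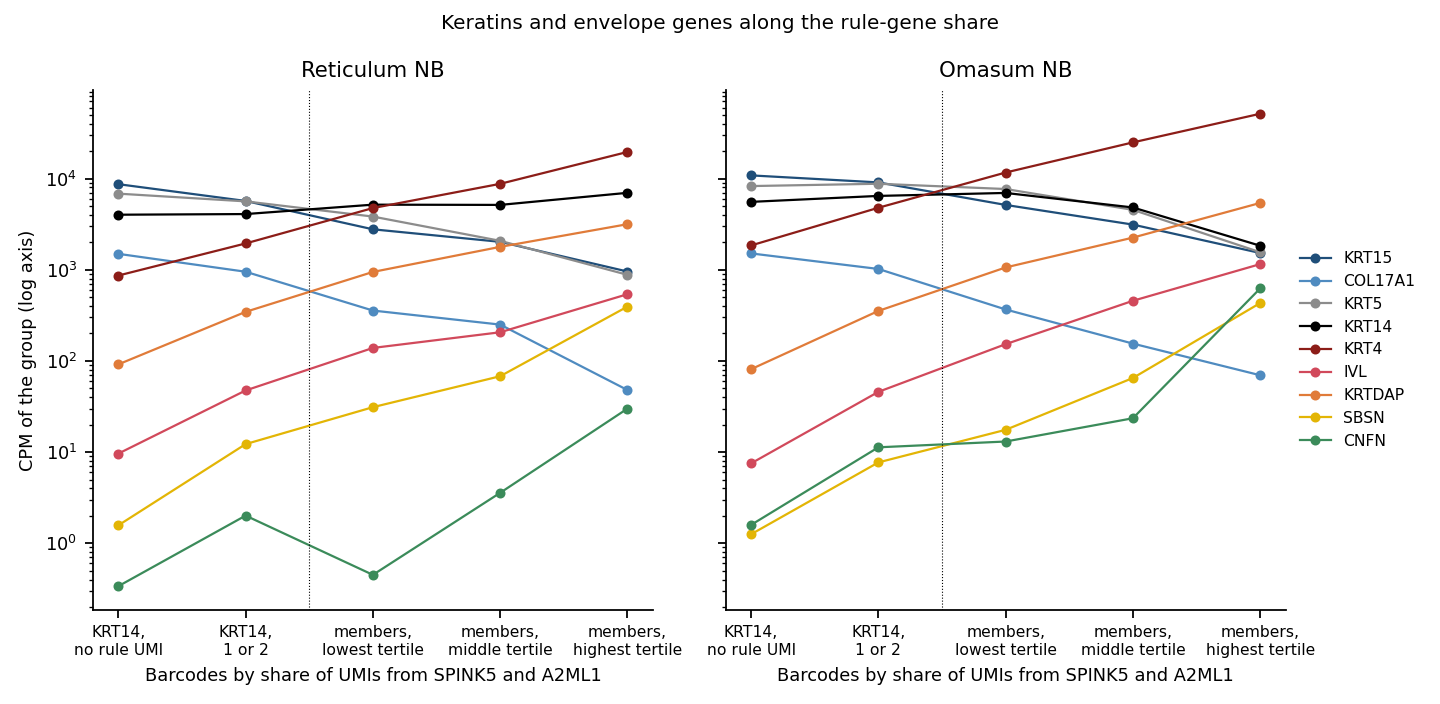
Level of named genes, in CPM on a log axis, over 5 groups of barcodes ordered by rule gene UMIs: *KRT14* barcodes without a rule UMI, with 1 or 2, and the lowest, middle and highest tertile of members by the share of rule gene UMIs. *KRT4* ascends to 19548 and 51313 CPM and *COL17A1* descends to 47.9 and 69.6 CPM (44.1 and 37.7 CPM without barcodes of high doublet score, which are not drawn), while *KRT14* ends at 6967 CPM in the reticulum and 1832 CPM in the omasum.

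Over all genes, 240 were at least 2-fold higher in the highest than in the lowest tertile in both tissues (2.94% of those tested) and 664 at least 2-fold lower (8.13%), counts that the ordering by rule genes shaped and from which nothing is read. Of these, 181 and 222 were also among the genes higher and lower in members as a whole. The genes furthest up in the highest tertile were *ARG1*, *CNFN*, *AHSG*, *CLDN10*, *GJB6* and *PI3*. *ARG1* was at 1.35 against 70.2 CPM from lowest to highest tertile in the reticulum and 3.53 against 124 CPM in the omasum, and *GJB6* (connexin 30) at 0.900 against 24 and 1.50 against 51.2 CPM. *LYZ1*, a lysozyme chosen here after its values were seen, was at 0.450 against 14.7 and 0.544 against 46.4 CPM. The genes furthest down were *RAD51AP1*, *BUB1B*, *NUSAP1*, *CEP55* and *CENPW*, which act in DNA repair and in chromosome segregation.

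Division genes were lowest in the highest tertile, and did not go one way over the steps before it. The 40 division genes summed to 4391 CPM in reticulum *KRT14* barcodes without a rule UMI, 4657 with 1 or 2, and 4258, 2492 and 727 CPM in the 3 tertiles. In the omasum they summed to 4671, 5440, 5061, 2211 and 494 CPM. The highest tertile thus had the lowest sum in both tissues, while the sum was higher with 1 or 2 rule UMIs than without any. At the thinned depth, 27.2% of the reticulum barcodes without a rule UMI (exact interval 26 to 28.3%), 36.8% of those with 1 or 2, 37.3% of the lowest tertile (exact interval 29.1 to 46.1%), 23.1% of the middle and 7.63% of the highest (3.72 to 13.6%) had a UMI of *MKI67* or *TOP2A*. In the omasum these were 21.8% (20.9 to 22.7%), 30.4%, 34.0% (29.9 to 38.2%), 16.3% and 3.86% (2.37 to 5.90%). The lowest tertile thus had a higher thinned share than barcodes without a rule UMI in both tissues. The sum of that tertile was lower in the reticulum and higher in the omasum. Barcodes without a rule UMI had a median depth of 9295.5 and 8772 UMIs, and those with 1 or 2 of 13117 and 10409. The lowest tertile was deeper still, as given above. Thinning evens out detection but not which barcodes fell into a group, and the part of depth in these values was not tested. The intervals of the highest tertile overlapped those of the collagen barcodes, 3.90% (0.811 to 11%) in the reticulum and 7.97% (4.05 to 13.8%) in the omasum. The latter are wide, from 77 and 138 barcodes, so nothing is read from the overlap. The median division gene was -2.64 and -3.51 on the log2 scale between the lowest and highest tertile, against -0.19 and -0.24 over all genes tested. Barcodes with a doublet score above the cutoff made up 6.72%, 2.99% and 1.50% of the reticulum tertiles and 14.3%, 10.9% and 4.34% of the omasum tertiles. Without them, the sums were 4218, 2563 and 708 CPM in the reticulum and 5204, 2043 and 453 CPM in the omasum, in the same order.

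**Figure D4:**
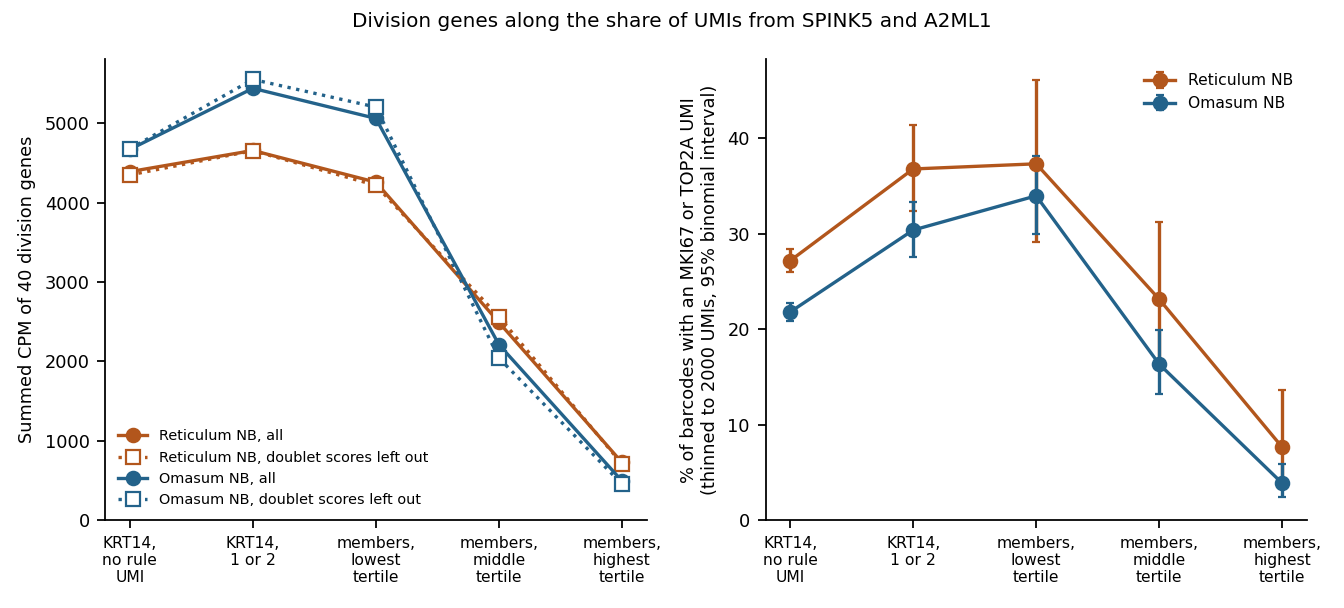
Division over the same 5 groups of barcodes in each tissue, on the left as the summed CPM of 40 division genes with and without barcodes of high doublet score, and on the right as the percent of barcodes, thinned to 2000 UMIs, with a UMI of *MKI67* or *TOP2A*, with exact 95% binomial intervals. On the right, values in the lowest tertile (37.3% and 34.0%) are like those of barcodes with 1 or 2 rule UMIs (36.8% and 30.4%), and the highest tertile is at 7.63% and 3.86%.

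Dividing members carried transcripts of division and of differentiation together. At least 3 UMIs of *MKI67* and *TOP2A* summed were held by 110 reticulum members (27.4%, exact interval 23.1 to 32.1%) and 297 omasum members (18.7%, 16.8 to 20.7%), against 27.3% and 21.5% of the other *KRT14* barcodes. These shares are at full depth, and members were deeper. At the thinned depth a smaller share of members than of the others had a UMI of either gene, as given above. Dividing members by this cut had *KRT4* at 5298 and 11746 CPM, against 998 and 2186 CPM in the dividing barcodes among the others. Their *COL17A1* was at 331 and 303 CPM against 1247 and 1274 CPM, and their *IVL* at 122 and 173 CPM against 14.4 and 11.4 CPM. Members without any UMI of *MKI67* or *TOP2A* (226 and 1091) had *KRT4* at 14879 and 35936 CPM, *COL17A1* at 163 and 156 CPM and *IVL* at 403 and 731 CPM. Dividing members thus lay between the dividing barcodes outside and the members without division transcripts in all 3 genes. The part of droplets with more than 1 cell in these values was not tested. The doublet scores given above were counted for tertiles and for all members, not for dividing members.

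Members that lacked *KRT14* or carried a single rule gene differed from the rest. The 29 reticulum and 115 omasum members without a *KRT14* UMI (7.23% in each tissue) had *KRT4* at 30532 and 52642 CPM, against 9588 and 27742 CPM in members with it, and *CNFN* at 24.0 and 521 CPM against 10.1 and 205 CPM. Their median depth was 8077 and 11463 UMIs against 14804 and 13618, and the part of this lower depth in the missing *KRT14* UMI was not tested. In the reticulum they had *KRT6A* at 1080 against 5114 CPM, *KRT17* at 1361 against 6875 and *KRT15* at 3342 against 1898. In the omasum these were at 5608 against 4988, 5751 against 7594 and 1519 against 3397 CPM. *KRT6A* and *KRT15* thus differed in opposite directions in the 2 tissues. Members with *SPINK5* alone had *IVL* at 117 and 257 CPM and *TOP2A* at 243 and 244 CPM, whereas members with both rule genes had *IVL* at 370 and 823 CPM and *TOP2A* at 75.1 and 81.9 CPM. Barcodes with both genes had more rule gene UMIs by construction (median 16.5 and 47 against 6 and 10).

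The members of the 2 tissues were then compared. Of the genes tested, 190 were at least 2-fold higher in omasum than in reticulum members (2.33% of the genes tested) and 228 at least 2-fold lower (2.79%). Of these, 47 and 111 were also 2-fold apart in the same direction between the other *KRT14* barcodes of the tissues. How many of all tested genes were so far apart between the other barcodes is not given here, so nothing is read from this overlap. Tissue, library and animal cannot be told apart here. The omasum members also held more rule gene UMIs (median 23 against 10), so that the tissue and the place on the course described above moved together.

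The 3 genes furthest on the omasum side were *CLDN10*, *CNFN* and *HOPX*, and of the 10 furthest *CNFN* and *CRNN* are on the envelope list. *CLDN10*, a claudin that forms ion-selective paracellular pores, was at 105 CPM in omasum members and 4.53 CPM in reticulum members, 23.1-fold (counting interval 15.7 to 35.4). *CNFN* was at 224 against 10.8 CPM, 20.7-fold (16.1 to 27), and *CRNN* (cornulin), a large calcium-binding protein of oesophageal epithelium, at 30.6 against 2.61 CPM. *HOPX*, a homeodomain protein without DNA binding, was at 284 against 17.8 CPM in members and at 24.5 against 15.1 CPM in the other barcodes. Its level in reticulum members was thus close to that of the other reticulum barcodes, while in the omasum it was far above. *CRCT1* and *CYSRT1*, cysteine-rich proteins of the outer layers, were at 158 and 72.9 CPM against 19.7 and 12 CPM. In the other *KRT14* barcodes *CLDN10*, *CNFN* and *CRNN* were at 1.08, 2.87 and 0.520 CPM in the omasum and 0.123, 0.491 and 0.200 CPM in the reticulum. In the highest tertile *CNFN* was at 623 CPM in the omasum and 29.9 in the reticulum and *CLDN10* at 279 and 14.2 CPM, but that tertile held more rule gene UMIs in the omasum. The middle omasum tertile, whose rule gene share was nearer to that of the highest reticulum tertile but below it, had *CNFN* at 23.5, *CRNN* at 2.16, *CRCT1* at 8.65 and *CYSRT1* at 20.2 CPM, against 29.9, 4.90, 30.5 and 30.5 CPM in the latter, and *CLDN10* and *HOPX* at 26 and 81.6 CPM against 14.2 and 43 CPM. Between these tertiles 4 of the 6 genes were thus lower in the omasum and 2 higher, and no tertiles of equal share were compared. *DLK1*, a membrane protein of immature cells, was on the omasum side in members (33.6 against 3.14 CPM) and in the other barcodes (277 against 36 CPM), and at 17 against 2.00 CPM in members without high doublet scores.

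On the reticulum side, *FABP4*, a fatty acid carrier, was at 289 against 9.84 CPM in members and at 45.4 against 2.64 CPM in the other barcodes. *AHCYL2*, a regulator of ion transport, was at 167 against 4.97 CPM. *SLC14A1*, a urea transporter, had 219 UMIs in reticulum members (38.2 CPM) and 2 UMIs in omasum members (0.0955 CPM), and it was at 10.4 against 0.121 CPM in the other barcodes. *TGM3* was 28.9-fold higher in reticulum members, and the inhibitor *SPINK6*, a relative of *SPINK5*, was at 41.5 against 0.955 CPM. *FABP4* and *SLC14A1* were thus on the reticulum side both in members and, at lower levels, in the other *KRT14* barcodes. So was *TGM3*, by its levels given further above. Values of *AHCYL2* and *SPINK6* in the other barcodes are not given here. Of the 22 immediate early and heat shock genes tested, 5 were at least 2-fold on the reticulum side in members and 1 on the omasum side, with a median log2 ratio of omasum to reticulum of 0.0082. Also on the reticulum side were *HSPA6*, from that list, and *HMOX1* and *CRYAB*, which are not on it, with *HMOX1* at 35 against 0.907 CPM, *HSPA6* at 13.4 against 0.287 CPM and *CRYAB* at 199.7 against 22.4 CPM in members and at 21.4 against 2.51, 15.7 against 1.02 and 147 against 23.6 CPM in the other barcodes. Mitochondrial shares were also higher in reticulum members, as given above, and the part of tissue handling in these differences was not tested.

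**Figure D5:**
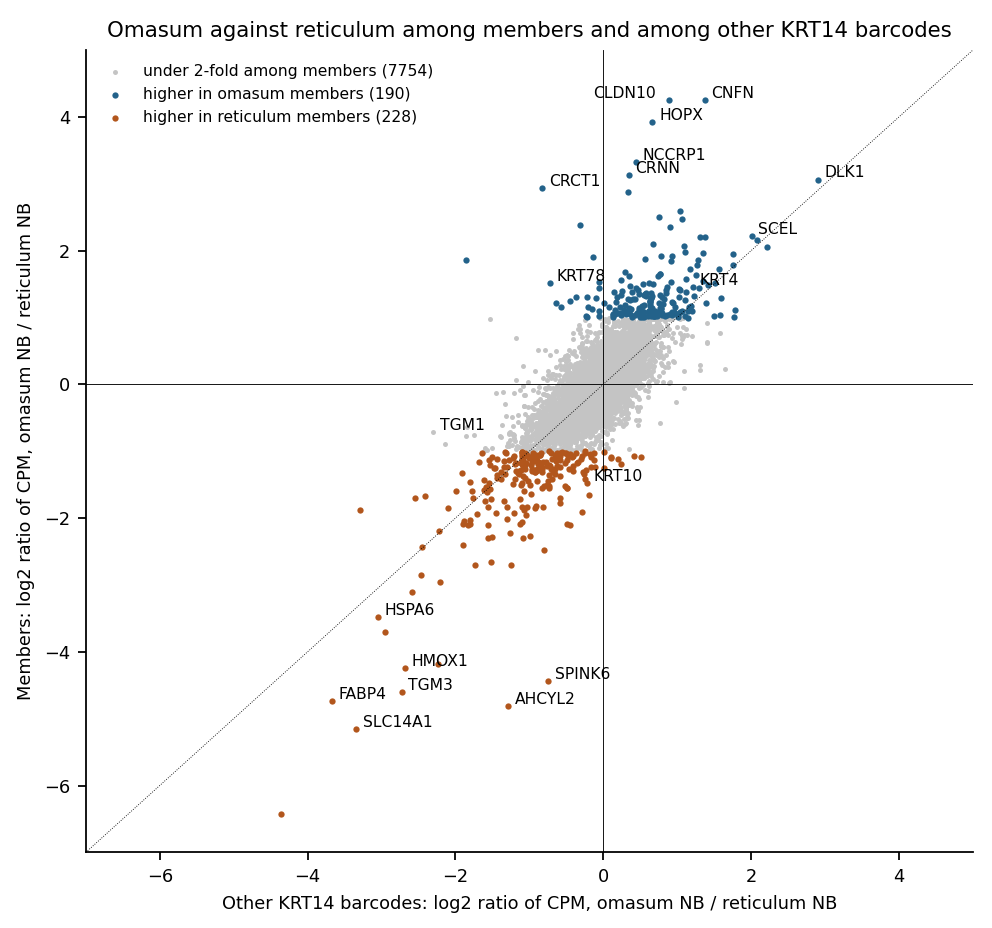
Log2 ratio of omasum to reticulum, on the scale of log2(CPM + 1), for the 8172 genes tested, with the other *KRT14* barcodes on the horizontal and the members on the vertical axis. *CNFN* and *CLDN10* lie high on the vertical axis with smaller ratios in the other barcodes, whereas *DLK1* and *FABP4* lie away from 0 on both axes.

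The same rule found 85 barcodes among 113875 within the limits in the 13 other libraries, none of which held a *KRT14* UMI or a UMI of *A2ML1*. Cecum AD had 57 of them (0.591%, exact interval 0.448 to 0.765%) and Ileum NB 22 (0.291%, 0.182 to 0.440%), Colon AD 3, Colon NB 2 and Jejunum AD 1, while 8 libraries had none. Of the Cecum AD barcodes 55 had a UMI of *EPCAM* and 56 of *KRT8*, a keratin of simple epithelium, and all 22 Ileum NB barcodes had both. Their median of rule UMIs was 4 in each of these libraries. A UMI of *CD3E*, a T cell gene, was seen in 13 of the Cecum AD barcodes and of *PTPRC* in 3. Among forestomach members *EPCAM* was also frequent, seen in 284 of 401 and 1293 of 1590, whereas *KRT8* was seen in 15 and 23. Most barcodes that met the rule in Cecum AD and Ileum NB thus carried *KRT8*, which few forestomach members did. The share of such barcodes among the rest of each library is not given here. Within the limits none outside the reticulum and omasum combined the rule with *KRT14*.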

How the data were processed

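The study measured RNA in single cells of cattle tissue with a droplet 3′ method. The authors aligned and counted the reads with Cell Ranger 3.1.0, per the submitters' processing notes, against the ARS-UCD1.2 genome, and deposited raw UMI counts per gene and barcode. The annotation release is not given in the sources used here, and the symbols are those of the deposited gene tables (19730 of 27270 genes). The study removed barcodes outside its limits on genes, UMIs and mitochondrial share and removed doublets, but the deposited matrices hold all 172405 barcodes, and the rule used here applies its limits on genes and UMIs alone.

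Counts were summed over the barcodes of a group and divided by the group's total to give CPM. Genes with a mean of at least 5 CPM over the 4 groups were compared as log2 of CPM plus a pseudocount of 1, and a gene was called at a ratio of at least 2-fold in both tissues, in the same direction. No p-value was computed, since each tissue had 1 library and barcodes are not replicates. Intervals (exact Poisson for CPM, exact conditional binomial for folds, exact Clopper-Pearson for shares, all at 95%) cover counting error only, and depth was 125527022 and 129458578 UMIs. For shares of barcodes with a division transcript each barcode was thinned to 2000 UMIs, which left out 2 and 40 members. Doublet scores came from simulated pairs of barcodes (2 per barcode, 30 principal components), and the highest scores were marked at 0.8% per 1000 barcodes, 451 in the reticulum and 963 in the omasum, without removing them from the main values. Counts were also simulated from the means of the other *KRT14* barcodes with counting error only, and 8240 genes passed the filter. Among those, 100 of 100 genes made 4-fold higher and 85 of 85 made 4-fold lower were called, and 0 of 8055 unchanged ones. Smaller changes and spread between cells or libraries were not simulated, so these counts do not bear on them.

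The members, the gene lists and the tests were chosen with earlier results of these data known. Named genes were the rule genes and *KRT14*, up to 4 called genes per direction and list, defining markers, the 10 genes per direction furthest from the other barcodes or between tissues, and the most abundant genes. The lists cover basal, keratin, envelope, junction, protease, lipid, transcription factor, signalling, defence, transport, metabolic, division, ribosomal and stress genes and markers of other cell types. Alternatives changed the rule, the limits, the contrast, depth, pseudocount, filter and scaling. List medians without doublet scores or with under 20% mitochondrial UMIs, and division sums and gene levels without doublet scores, were added after seeing the data. Values of a few genes are not reported here. No sequences are shown, since no sequence table was used here. Python 3.11.15, NumPy 2.4.6, SciPy 1.17.1, pandas 2.3.3, scikit-learn 1.9.0 and matplotlib 3.10.9 were used.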

Additional observations from a re-analysis of the deposited data

Results flagged for a closer look

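Barcodes that met the rule in libraries outside the forestomach are listed because they lie in data that the comparison of members does not use. Cecum AD held 57 and Ileum NB 22, against 0 in 8 other libraries, and no such barcode had a UMI of *KRT14* or *A2ML1*.

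For 6 genes the highest tertile of members was at least 2-fold from the lowest in opposite directions in the 2 tissues. The log2 ratio of highest to lowest tertile was 1.03 in the reticulum and -1.04 in the omasum for *CCDC50*, 1.21 and -1.03 for *TRAF3IP1*, and 1.56 and -1.24 for *EGFL7*. It was -1.06 and 1.10 for *IRF9* and -1.23 and 1.11 for *ASRGL1*. *BPIFA1*, a secreted defence protein that was higher in members of both tissues, had 2.66 in the reticulum and -1.59 in the omasum. Most of these levels were under 10 CPM in the reticulum, each tissue had 1 library, and the difference between the tissues was not tested. Of 8172 genes, 6 are 0.0734%.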

How the results depend on the processing

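Among the list medians and named genes that were followed under an alternative, no called one turned its direction. The named genes followed were those furthest from the other barcodes or between the tissues, so a turn was unlikely from the start. Other called genes, *KRT4* and *COL17A1* among them, were not part of that set, and nothing is read for them from this. List medians were followed under only part of the alternatives. *PLK1*, which was not called, turned its direction under another scaling. The counts of genes depended on the filter and the pseudocount. With a filter at a mean of 20 CPM, 203 genes were higher and 196 lower in members, and 98 were higher and 125 lower in omasum members. With no filter, 814 were lower in members and 297 and 402 were higher and lower in omasum members, and with a pseudocount of 5 CPM these 3 counts were 280, 91 and 140. Thinning to 2000 UMIs gave 518 genes higher and 419 lower in omasum members. Lower genes outnumbered higher ones in both main comparisons (494 against 336, and 228 against 190), and this balance turned for members with the filter at 20 CPM and for the tissues with thinning. In members, the omasum alone gave 510 higher genes, no upper limit on genes per barcode gave 295 lower ones, and leaving out barcodes with a UMI of *MKI67* or *TOP2A* gave 761. That last step also raised the number of lists whose median was at least 1 in size, in the same direction in both tissues, from 8 to 14 of those with at least 3 tested genes (25 in the main comparison). The cause of these changes was not tested, except that a filter changes how many genes are tested. The share of members in the reticulum was 4.81% with under 20% mitochondrial UMIs, and 6.70% with no upper limit on genes, 6.67% at 2 rule UMIs, 4.13% at 5, and 3.35% with both rule genes required. In the omasum the last 4 were 16.7%, 16.8%, 12.8% and 8.14%. Scaling by medians of ratios subtracted -0.11 and -0.09 from the log2 ratios, and so raised them. Of the list medians under an alternative, 65 moved by more than the gap between the tissues and 235 did not, and of the counts and shares 25 moved and 59 did not. Of the values of the named genes that were followed under an alternative, 623 stayed past 2-fold and 17 did not. This was mostly because a stricter filter left the gene out, *COL1A1* among them. That gene was also left out with at least 3 *KRT14* UMIs asked of the other barcodes. No paired analysis was possible because each tissue has 1 library and no replicate numbers link them. Depth limits the low genes most, and a share of barcodes with a UMI does not show which cells express a gene.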
